A study of Oryza sativa with 4 samples.

Results

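The transcripts described here were bright in control rice leaf and at least 5-fold dimmer on the arrays labelled overexpressor. A probe set, the group of short probes that reads 1 transcript on the array, was a member when it paired with exactly 1 gene, both control arrays read 200 or more, and the lower control signal was at least 5 times the higher overexpressor signal. The rule was met by 77 probe sets of 74 genes, out of 22436 probe sets with 1 gene (17905 genes) and 57381 probe sets on the array. Both control arrays read 200 or more for 14856 of the single-gene probe sets, so the members were 0.518% of those that could have met the rule. The members were thus chosen by their signals on these 4 arrays, and the size of the difference between the groups is a description that carries no test. The rule also fixes that the groups do not overlap for any member.

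The overexpressor plants were rice of the cultivar Nipponbare transformed with the vector pActnos/Hmz-OsRR6, labelled as overexpressing the response regulator OsRR6, and the controls were transformed with the empty vector pActnos/Hmz, with 2 arrays each. All were T0 plants, regenerated from callus and passed through hygromycin-B selection, so controls and overexpressors share transformation, selection and tissue culture. Leaf RNA was taken 75 days after germination from plants grown hydroponically under a light period of 12 h (30 °C) and a dark period of 12 h (25 °C). The labels describe the line in the singular and say neither which promoter the vector carries nor whether the 2 replicates of a group are separate plants, so p-values measure only how far these arrays spread, which could be technical variation.

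Type-A response regulators are proteins of the cytokinin phosphorelay that are induced by the hormone and dampen the plant's further response to it. Cytokinins promote cell division and shoot growth, delay leaf ageing and take part in panicle and flower development, and their level is lowered by cytokinin oxidase/dehydrogenase enzymes. In plants, many transcripts that are plentiful in 1 organ encode proteins made in bulk there, such as the secreted lipid-transfer proteins of the tapetum, the nurse layer that feeds developing pollen in the anther.

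The array signals are linear intensities scaled by the authors to a common level, with a mean near 500.1 on every array after trimming 2% at each end, and background, taken as the 95th percentile of 69 control probe sets for sequences foreign to rice, lay at 43.4 and 39.2 on the overexpressor-labelled arrays and at 30.0 and 36.8 on the control arrays. The number of arrays, and not a read depth, limits the precision. The probe set for RR6 itself read 2264 and 1989 on the arrays labelled overexpressor, against 2559 and 2733 on the control arrays. That probe set therefore goes against the label, and no label or table used here says whether its probes lie within the transgene. Log2 changes below are overexpressor minus control after adding a pseudocount of 3.6, which understates the change of dim transcripts. Since leaf RNA was measured in bulk, fewer cells of a type and less RNA per cell cannot be told apart.

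The members spanned a wide range of levels. Their group means ran from 5.70 to 1690 with a median of 141 on the overexpressor-labelled arrays, and from 216 to 13720 with a median of 1110 on the control arrays. Their signals summed to 21218 and 22648 on the overexpressor-labelled arrays, which was 0.0517% and 0.0563% of all signal there, against 211548 and 209070, or 0.513% and 0.503%, on the control arrays. The ratio of the lower control to the higher overexpressor signal had a median of 7.00. It reached 10 or more for 24 members, 20 or more for 8, 50 or more for 6 and 100 or more for 4, while 29 members lay between 5 and 6. The median log2 change of the members was -3.21, and -3.09 with the members at background set at their bound, beside 0.08 over all 28629 probe sets tested in the comparison of all genes. Of the 77 members, 76 passed that comparison's filter on dim probe sets.

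**Figure D1:**
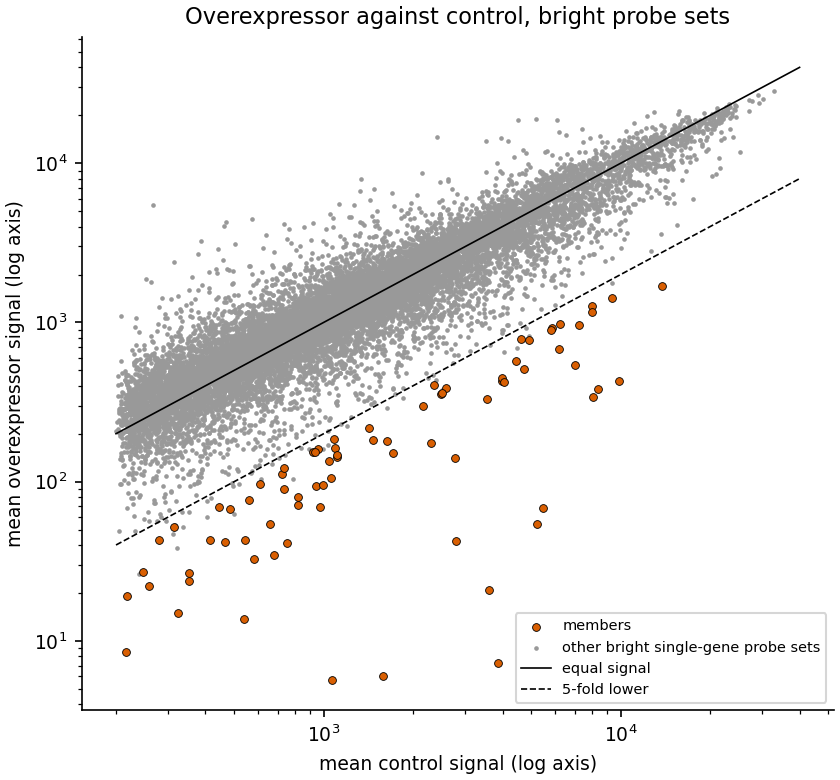
Mean signal on the 2 overexpressor-labelled arrays (vertical) against mean signal on the 2 control arrays (horizontal) for 14856 single-gene probe sets with both control arrays at 200 or more, on log axes in linear array units. Orange points are the 77 members, the solid line marks equal signal and the dashed line a 5-fold lower signal. The members run below the dashed line at mean control signals from 216 to 13720, and other probe sets reach higher control signals.

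On the overexpressor-labelled arrays 12 members were at background on both arrays, 8 on 1 array and 57 on neither. Both of these arrays still read 200 or more for 27 members, so the transcripts divided into some that were hardly seen and some that stayed clearly measurable. By the lower control signal, members made up 0.356% of probe sets from 200 to 500, 0.579% from 500 to 1000, 0.354% from 1000 to 2000, 0.597% from 2000 to 5000 and 0.994% of those at 5000 or more, which were 13, 20, 12, 17 and 15 members. The mirrored rule, with both overexpressor-labelled arrays at 200 or more and at least 5 times the control, was met by 17 of 14989 probe sets, or 0.113%. Lower probe sets outnumbered higher ones in every setting tried, but the size of the excess depended on the scaling and on single arrays. With median centring 91 were lower and 15 higher, and without overexpressor replicate 1 the counts were 114 and 34. The excess was relatively smallest in 2 other settings. Scaled to the hybridisation spikes, 42 probe sets were lower and 32 higher by these rules, and without overexpressor replicate 2 they were 130 and 85.

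**Figure D2:**
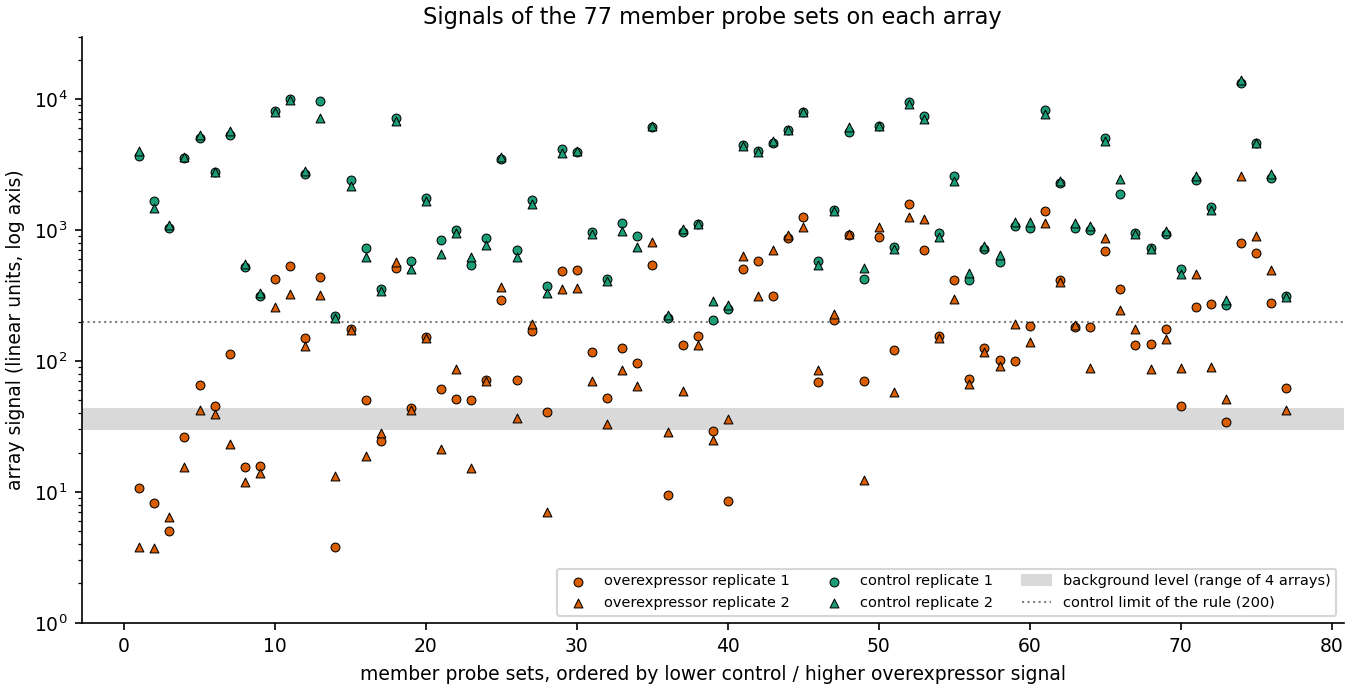
Signal of each of the 77 member probe sets on each of the 4 arrays (log axis, linear array units), ordered by the ratio of the lower control to the higher overexpressor signal. Circles are replicate 1 and triangles replicate 2, orange is overexpressor and green control, the grey band spans the background levels of the 4 arrays from 30.0 to 43.4, and 12 members lie at background on both overexpressor arrays.

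A symbol or synonym in the RefSeq gene table names 12 of the 74 genes, and the other 62 are known here by locus only. The names cover tapetum proteins, cytokinin breakdown, protein phosphatases, a homeobox factor, transport and iron reduction, a chitinase, plastid signalling and terpene synthesis. All but 1 of the genes, 73, are listed as protein-coding.

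RTS and C6, genes of the anther, had the largest ratios among the named members. RTS (LOC4326940), a gene known for its tapetum-specific transcript in rice, read 10.8 and 3.80 on the overexpressor-labelled arrays, against 3702 and 4044 on the control arrays. Both overexpressor values were at background, and its signal was at least 93.9-fold lower there. Its control signal was above that of 95.2% and 95.7% of all probe sets on the 2 arrays.

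C6 (LOC4350790), a lipid-transfer protein gene known from the rice anther, read 114 and 23.2 on the overexpressor-labelled arrays, against 5289 and 5682 on the control arrays, a log2 change of -6.61. The second overexpressor array was at background and the first was not, so the 2 arrays differed far more than the control pair. RAFTIN1 (LOC4345929, also listed as BURP13), which encodes a BURP-domain protein of the tapetum needed for pollen development, read 132 and 59.4 on the overexpressor-labelled arrays, against 964 and 1019 on the control arrays, with a log2 change of -3.43. In both genes replicate 1 was the higher of the overexpressor pair.

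These 3 genes were followed up in a list of 11 anther and tapetum markers, of which 8 were measured. Both overexpressor-labelled arrays were below both control arrays for 7 of the 8 and above them for MSP1, a receptor kinase gene of early anther development, but 3 of the 7 are members whose direction the rule fixed. Of the 5 markers that are not members, 4 were lower in this way, beside 28.0% of all single-gene probe sets. The summed marker signal was 1633 and 1224 on the overexpressor-labelled arrays, against 14878 and 15509.9 on the control arrays. Without the 3 members the sums were 1376 and 1137 on the overexpressor-labelled arrays, against 4923 and 4764 on the control arrays. C4, another lipid-transfer protein gene of the anther, was the brightest of those left on every array, with 804 and 506 on the overexpressor-labelled arrays, against 4115 and 3961 on the control arrays.

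None of the 8 anther markers was at background on both control arrays, and RTS was the 1 marker at background on both overexpressor-labelled arrays. TDR and EAT1, regulators of tapetum development, read 80.3 and 80.4, and 77 and 45.1, on the overexpressor-labelled arrays, against 103 and 102, and 80.0 and 96.4, on the control arrays. For these 2 regulators the signals stood not far above background in both groups. The part that anther tissue in the samples might have in the result was not tested.

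Of the other tissue markers, all 6 measured leaf genes were lower on both overexpressor-labelled arrays, with sums of 72640.2 and 69257 there, against 99264 and 103079 on the control arrays. They include rbcS and CAB2R, which encode the small Rubisco subunit and a light-harvesting protein and which were among the brightest signals in both groups, so the RNA carried leaf transcripts as labelled. Floral MADS-box genes were lower in 6 of 9, with sums of 3463 and 3610.3 on the overexpressor-labelled arrays, against 4118 and 4239 on the control arrays. Root markers were lower in 2 of 3, with sums of 319 and 554 on the overexpressor-labelled arrays, against 1832 and 1883 on the control arrays. LSI1 alone made up most of these sums, with 283 and 491 on the overexpressor-labelled arrays, against 1667 and 1756 on the control arrays. Seed markers were lower in 1 of 3, with sums of 787 and 832 on the overexpressor-labelled arrays, against 881 and 1017 on the control arrays. Lower in this way were 28.0% of all single-gene probe sets and 33.8% of those bright in the controls. No marker gene outside the anther list was itself a member, and what part other tissues have in the members' change was not tested.

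**Figure D3:**
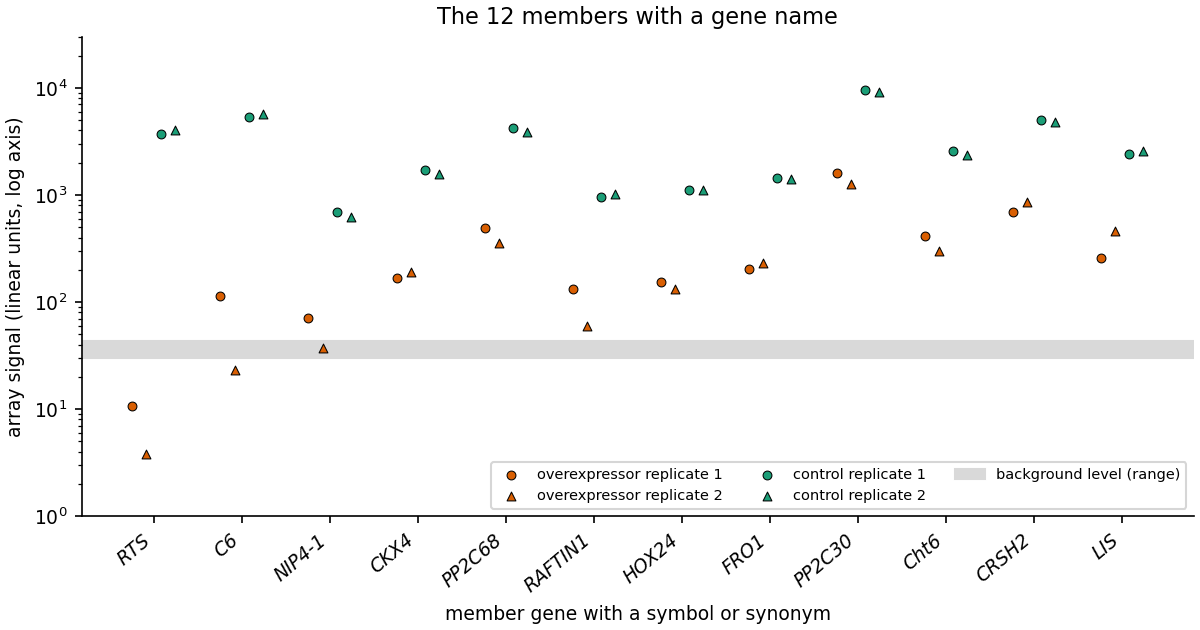
Signals of the 12 members with a gene name on each array (log axis, linear array units), with the overexpressor arrays in orange left of the control arrays in green, circles for replicate 1 and triangles for replicate 2. The grey band is the background range; RTS lies below it on both overexpressor arrays, C6 and NIP4-1 lie in or below it on 1, and the other 9 named members stay above it.

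CKX4 (LOC4326515) encodes a cytokinin oxidase/dehydrogenase, an enzyme that breaks cytokinins down. It read 169 and 191 on the overexpressor-labelled arrays, against 1692 and 1574 on the control arrays, a log2 change of -3.16 (SE 0.14). Both overexpressor values lay well above background and close to each other.

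Both protein phosphatases among the members are of type 2C, a family in which one clade damps abscisic acid signalling. PP2C68 (LOC4346736, also PP108 and SIPP2C1) read 487 and 354 on the overexpressor-labelled arrays, against 4198 and 3865 on the control arrays, with a log2 change of -3.27 (SE 0.16). PP2C30 (LOC4332374) was among the brightest named members, with 1588 and 1257 on the overexpressor-labelled arrays, against 9512 and 9184 on the control arrays, a log2 change of -2.72 (SE 0.12). Neither came near background, and replicate 1 was the higher overexpressor array in both.

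HOX24 (LOC4330155), a homeodomain-leucine zipper transcription factor gene, read 155 and 132 on the overexpressor-labelled arrays, against 1115 and 1104.5 on the control arrays, a log2 change of -2.93 (SE 0.15). FRO1 (LOC4335953), a ferric reductase gene of the family that reduces iron for uptake, read 205 and 229.6 on the overexpressor-labelled arrays, against 1427 and 1412 on the control arrays, a log2 change of -2.69 (SE 0.13). In these genes the replicates of each pair lay close together. NIP4-1 (LOC4326119), an aquaporin-like channel gene of the NOD26-like intrinsic protein family, was dimmer, with 71.6 and 37.0 on the overexpressor-labelled arrays, against 699.6 and 623 on the control arrays. Its second overexpressor array was at background.

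Cht6 (LOC4329920), a chitinase gene, read 416 and 298 on the overexpressor-labelled arrays, against 2581 and 2373 on the control arrays, a log2 change of -2.80 (SE 0.17). Chitinases cleave the chitin of fungal walls. CRSH2 (LOC4337890) encodes a plastid RelA/SpoT-like enzyme that makes the alarmone ppGpp under the control of calcium, and it read 690.2 and 866 on the overexpressor-labelled arrays, against 5040.2 and 4778 on the control arrays. LIS (LOC4328124), named for linalool synthase, an enzyme that forms a volatile monoterpene, read 257 and 461 on the overexpressor-labelled arrays, against 2404 and 2583 on the control arrays. For CRSH2 and LIS replicate 2 was the higher overexpressor array, the reverse of the order seen in C6 and RAFTIN1.

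Among the genes known by locus only, the members with the largest ratios were hardly seen on the overexpressor-labelled arrays. LOC4348109 read 8.30 and 3.70 there, against 1682 and 1484 on the control arrays, at least 38.3-fold lower. LOC4338574 read 5 and 6.40 on the overexpressor-labelled arrays, against 1038 and 1094 on the control arrays, at least 25.9-fold lower. LOC4326388 read 26.5 and 15.4 on the overexpressor-labelled arrays, against 3556 and 3635 on the control arrays, at least 87.2-fold lower. All of these sat at background on both overexpressor-labelled arrays, so the folds are lower bounds set by the background and the order among the genes is not resolved.

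LOC4342551 read 65.8 and 42.4 on the overexpressor-labelled arrays, just above background, against 5059 and 5364 on the control arrays, a log2 change of -6.53 (SE 0.21). LOC4326386, the gene listed 2 places from LOC4326388, read 45.5 and 39.3 on the overexpressor-labelled arrays, also just above background, against 2757 and 2801 on the control arrays. LOC9268308 had 2 member probe sets, which read 15.6 and 12.0, and 275 and 90.8, on the overexpressor-labelled arrays, against 526 and 555, and 1502 and 1425, on the control arrays. The first of these was at least 13.1-fold lower, and the second kept signal above background on both overexpressor-labelled arrays. The second is of a type that can hybridise to several transcripts, so related genes could share its signal.

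Very bright control transcripts were also among the unnamed members. LOC4326757 read 426 and 259 with one probe set and 528 and 327 with the other on the overexpressor-labelled arrays, against 8105 and 7975, and 9982 and 9826, on the control arrays. Its log2 changes were -4.58 (SE 0.22) and -4.56 (SE 0.21), so the pair of probe sets gave nearly the same size of change. Both are of a type that can hybridise to several transcripts, so related genes could share their signal. LOC4344635 read 441 and 318 on the overexpressor-labelled arrays, against 9609.8 and 7125 on the control arrays. LOC4331910 read 513 and 568 on the overexpressor-labelled arrays, against 7157 and 6875 on the control arrays. In each of these genes the overexpressor signal stayed several times above background.

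LOC4335529 was represented by a pair of member probe sets, which read 150.1 and 131, and 60.6 and 21.2, on the overexpressor-labelled arrays, against 2689 and 2826, and 847 and 662, on the control arrays. These too are both of the type that can hybridise to several transcripts. LOC4351869 read 175 and 173 on the overexpressor-labelled arrays, against 2434 and 2168 on the control arrays. LOC4343600 read 152 and 150.3 on the overexpressor-labelled arrays, against 1755 and 1672 on the control arrays. The last 2 genes had overexpressor replicates that differed by less than 2 units.

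Other members with large ratios were dimmer in the controls. LOC4334592 read 15.9 and 13.9 on the overexpressor-labelled arrays, against 315 and 330.4 on the control arrays, at least 7.83-fold lower. LOC4330757 read 24.6 and 28.4 on the overexpressor-labelled arrays, against 357 and 346 on the control arrays, at least 8.53-fold lower. LOC4333663 read 3.80 and 13.2 on the overexpressor-labelled arrays, against 219 and 213 on the control arrays, at least 5.24-fold lower. These were all at background on both overexpressor-labelled arrays, and the bounds are far smaller than the ratios of the measured signals.

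LOC4341600 was of the same kind, with 40.8 and 7.00 on the overexpressor-labelled arrays, against 374 and 330.3 on the control arrays, at least 8.53-fold lower. LOC4334321 read 50.6 and 18.7 on the overexpressor-labelled arrays, against 733 and 625 on the control arrays. LOC4352357 read 50.4 and 15.1 on the overexpressor-labelled arrays, against 545 and 623 on the control arrays. In LOC4334321 and LOC4352357 overexpressor replicate 2 was at background and replicate 1 was not.

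LOC4323909 read 43.9 and 42.1 on the overexpressor-labelled arrays, against 581 and 503 on the control arrays. LOC4347198 read 51.2 and 87.1 on the overexpressor-labelled arrays, against 1008 and 943 on the control arrays. LOC4346934 read 72.2 and 69.9 on the overexpressor-labelled arrays, against 867 and 773 on the control arrays. All 3 stayed above background on every array, LOC4323909 by a narrow margin. LOC4349475 read 498 and 364 on the overexpressor-labelled arrays, against 3937 and 4004 on the control arrays, which completes the 30 members with the largest ratios together with LOC4341468, described with its neighbour below.

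The 34 members outside the naming rule had ratios from 5.18 to 7.83. Their signals ran from 8.60 to 2589.8 on the overexpressor-labelled arrays and from 204 to 14029 on the control arrays, and their log2 changes from -3.76 to -2.52. Control means were 5000 or more for 8 of them and under 1000 for 17. The brightest member of all, LOC4330542, is among them, with 790.3 and 2589.8 on the overexpressor-labelled arrays, against 13411 and 14029 on the control arrays. Its 2 overexpressor arrays differed more than 3-fold, and it was picked out for its level after the values were seen.

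At the 5-fold limit, the 3 members just inside were LOC4349376 with a ratio of 5.03, LOC4341467 with 5.06 and LOC4331460 with 5.12. The 3 probe sets just outside belonged to LOC4346934 with 4.99, LOC4343572 with 4.97 and LOC4331412 with 4.97. The probe set of LOC4346934 just outside is a second one for a member gene. It read 56.7 and 47.5 on the overexpressor-labelled arrays, against 283 and 390 on the control arrays.

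The 2 overexpressor-labelled arrays differed from each other more than the controls did among these transcripts. The median absolute log2 gap between the overexpressor replicates was 0.48 over the members, and that between the control replicates 0.08, beside 0.16 and 0.08 over all 14856 bright probe sets. The gap reached 2-fold or more for 17 members on the overexpressor-labelled arrays and for 0 members on the control arrays. The like count was not taken over all bright probe sets. Replicate 1 was the higher of those 17 in 12 and replicate 2 in 5. Some of the 17, such as RTS, were at background on both overexpressor-labelled arrays, where the gap is not resolved. Of the 43 members with an overexpressor mean of 100 or more, 4 had a gap of 2-fold or more. The members are dimmer on the overexpressor-labelled arrays than most bright probe sets, so the gap was also taken within a shared range of levels. Over the 43 members with an overexpressor mean of 100 or more the median gap was 0.40, beside 0.18 over the 9417 other bright probe sets in the same range of overexpressor means. Levels were not matched within that wide range, so the comparison does not set the part of signal level aside.

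Replicate 1 was the higher overexpressor array in 63.6% of the members, 49 of 77, beside 47.7% of all bright probe sets. The widest gap between the overexpressor arrays, 2.54 on the log2 scale, belonged to LOC4341600, where both were at background.

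Of the 74 member genes, 14 had further probe sets that did not meet the rule, 17 in all. Both overexpressor-labelled arrays were below both control arrays for 8 of the 9 such probe sets that were bright in the controls and for 7 of the 8 dimmer ones, beside 33.8% and 16.7% of all bright and dimmer single-gene probe sets. In the limma fit 11 of the 12 that were tested passed as lower, where 13.1% of all probe sets did. These probe sets read the same genes in the same contrast as the rule, so their direction is a description.

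Some of these genes had probe sets that differed in size. For LOC4348152 the member probe set read 136 and 86.5 on the overexpressor-labelled arrays, against 726 and 717 on the control arrays, while the other read 2190.1 and 2098 on the overexpressor-labelled arrays, against 2286 and 2153 on the control arrays. For LOC4344250 the member probe set read 29.2 and 25.0 on the overexpressor-labelled arrays, against 204 and 288 on the control arrays, while a much brighter one read 4091 and 3365 on the overexpressor-labelled arrays, against 5075 and 5155 on the control arrays. LOC4323909, whose member probe set was given above, had brighter ones that read 855 and 1116, and 451 and 511, on the overexpressor-labelled arrays, against 3405 and 3579, and 1523 and 1639.8, on the control arrays. Their log2 changes were -1.83 and -1.71, against -3.55 for the member probe set. In LOC4340664 a brighter probe set read 1210.2 and 868 on the overexpressor-labelled arrays, against 2528 and 2434 on the control arrays, while the member probe set read 70.9 and 12.3 on the overexpressor-labelled arrays, against 421 and 510.4 on the control arrays. In these 4 genes a 5-fold drop was seen with the member probe set and not with the brighter ones, and the genes were picked out after their values were seen. Of the 77 members, 9 are of a type that can hybridise to several transcripts, so related genes could share their signal. Besides those of LOC4326757, LOC4335529 and LOC9268308, they are the member probe sets of LOC4344635, LOC4331910, LOC4349475 and LOC4331460.

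Relatives of the named members, genes that share the letters of their symbols, were compared between the groups with limma across all probe sets. Of the 92 relatives tested, 25 fell (27.2%), 18 rose (19.6%) and 49 did not pass an adjusted p of 0.05, with a median log2 change of -0.01, beside 15.2% of all genes that fell, 18.8% that rose and a median of 0.09. The counts of relatives that fell and rose were 14 and 5 without control replicate 1, 16 and 6 without control replicate 2, and 16 and 35 with scaling to the hybridisation spikes. The counts over all tested probe sets, 3760 lower and 4410 higher, moved in the same settings. They were 1607 and 1412 without control replicate 1, 1721 and 1519 without control replicate 2, and 2115 and 11533 with scaling to the spikes. Both directions occurred within the chitinase, homeobox, NIP and type 2C phosphatase families.

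The type 2C phosphatases were the largest family. Of 51 tested relatives of PP2C30 and PP2C68, 16 fell, 4 rose and 31 did not pass. Those at least 2-fold lower in every pair of arrays were PP2C40 (log2 change -1.60, SE 0.15, limma adjusted p = 0.001), PP2C48 (-1.54, SE 0.13, limma adjusted p = 0.000804) and PP2C09 (-1.41, SE 0.22, limma adjusted p = 0.00571). PP2C40 read 1687 and 2292 on the overexpressor-labelled arrays, against 5939 and 5982 on the control arrays. PP2C73 went the other way, with 933 and 1409 on the overexpressor-labelled arrays, against 389 and 366 on the control arrays (log2 change 1.60, SE 0.20, limma adjusted p = 0.00297).

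CKX5, another cytokinin oxidase/dehydrogenase gene, also fell, with 338 and 267 on the overexpressor-labelled arrays, against 1077 and 1146 on the control arrays (log2 change -1.88, SE 0.16, limma adjusted p = 0.000736). It was the 1 of 2 tested relatives of CKX4 to pass. CRSH1, the 1 tested relative of CRSH2, is listed 2 places before it, so it counts among both the relatives and the neighbours that fell. It fell by 0.61 on the log2 scale (SE 0.12, limma adjusted p = 0.0135), with 478 and 503 on the overexpressor-labelled arrays, against 743 and 754 on the control arrays. That call was lost without control replicate 1 (-0.62), without control replicate 2 (-0.59) and with scaling to the spikes (-0.29).

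Of the 3 tested relatives of NIP4-1, 2 fell and 1 rose. Lsi1, which encodes the silicon channel of the same family, read 283 and 491 on the overexpressor-labelled arrays, against 1667 and 1756 on the control arrays, and fell by 2.19 (SE 0.25, limma adjusted p = 0.00199). Among 9 relatives of Cht6, 2 fell, 4 rose and 3 did not pass. Chia1d, a chitinase gene just short of the members' limit, read 997 and 645 on the overexpressor-labelled arrays, against 4864 and 4958 on the control arrays, and fell by 2.61 (SE 0.19, limma adjusted p = 0.000558).

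HOX24 had 21 tested relatives, of which 3 fell, 6 rose and 12 did not pass. HOX12 rose, with 616 and 514 on the overexpressor-labelled arrays, against 96.2 and 118 on the control arrays (log2 change 2.36, SE 0.20, limma adjusted p = 0.000791). Hox28 also rose, by 1.48 (SE 0.27, limma adjusted p = 0.0103), a call lost without control replicate 1 (1.34). Both homeobox relatives at least 2-fold apart in every pair of arrays were thus higher, where HOX24 itself was lower. The 3 that fell, HOX15 (log2 change -1.19), Hox22 (-1.12) and HOX1 (-0.41), went the same way as HOX24. They were not 2-fold lower in every pair.

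Of the 5 tested BURP-domain relatives of RAFTIN1, 3 rose, 2 did not pass and 0 fell. BURP16 read 2124 and 342 on the overexpressor-labelled arrays, against 10.5 and 4.30 on the control arrays, which were both at background. It was at least 25.6-fold higher (limma adjusted p = 0.00305), a limit that was 10.3-fold without overexpressor replicate 1 and 63.9-fold without overexpressor replicate 2. RTS, C6, FRO1 and LIS had no tested relative by this rule of symbols.

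The neighbours of the members were taken as the 2 nearest genes on either side in the order of the RefSeq gene table of assembly ASM3414082v1, which served for names and order alone. The 74 member genes had 286 neighbours that were not members, of which 155 had a probe set and 137 were tested. Of these, 19 fell (13.9%), 34 rose (24.8%) and 84 did not pass, with a median log2 change of 0.09, the same as over all 15852 genes to 2 decimals. Without control replicate 1 the counts that fell and rose were 9 and 15, without control replicate 2 they were 9 and 14, and with scaling to the spikes 9 and 66. The counts over all tested probe sets moved in these settings too, as given above with the relatives. The share of neighbours that fell was near the background of 15.2% of all genes, and the share that rose was above that of 18.8%, a difference that was not tested. With 5 genes on either side, 68 of 350 tested neighbours rose and 58 fell. The share that rose then lay closer to that of all genes.

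By place, 6 of 37 genes fell and 12 rose 2 places before the member, and 1 of 31 fell and 7 rose just before it. Just after the member 6 of 32 fell and 6 rose, and 2 places after it 7 of 38 fell and 9 rose. The median log2 changes in that order were 0.21, 0.10, 0.07 and 0.00. Over all genes 15.2% fell and 18.8% rose. Of the 64 members with a tested neighbour, 17 had at least 1 that fell and 27 at least 1 that rose, 6 had both and 26 had neither. The like count was not taken around genes that are not members, so these counts have no background here.

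**Figure D4:**
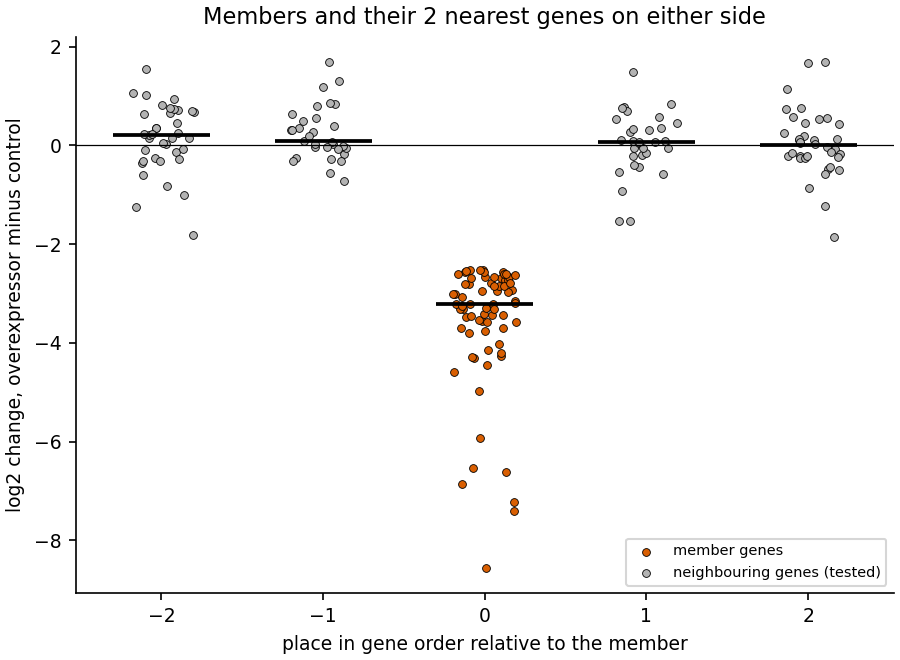
Log2 change (overexpressor minus control) of the members at place 0 and of tested genes 1 or 2 places before and after them in gene order. Each point is 1 probe set, horizontal bars are medians, and the medians of the neighbours lie between 0.00 and 0.21 while that of the members is -3.21.

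Neighbours at least 2-fold lower in every pair of arrays numbered 6 of the 137 tested, beside 565 of all 15852 genes. The difference in share was not tested. LOC4347254 read 196 and 179 on the overexpressor-labelled arrays, against 727 and 656 on the control arrays (log2 change -1.86, SE 0.15, limma adjusted p = 0.000742). It lies 2 places after the member LOC4347252. LOC4343598, 2 places before LOC4343600, fell by 1.81 (SE 0.15, limma adjusted p = 0.000751). LOC4352807, beside LOC9270250, fell by 1.53 (SE 0.16, limma adjusted p = 0.00159). LOC4328122, 2 places before LIS, read 626 and 608 on the overexpressor-labelled arrays, against 1555 and 1383.5 on the control arrays. It fell by 1.25 (SE 0.11, limma adjusted p = 0.001). The last 2, LOC4326918 and LOC4326919, follow a pair of members and are described with it.

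Neighbours at least 2-fold higher in every pair numbered 5 of the 137 tested, beside 404 of all 15852 genes, a difference that was not tested either. They were LOC4336764 (log2 change 1.69), LOC4338913 (1.68), LOC4337892 (1.67), LOC4330540 (1.54) and LOC4337337 (1.17), with limma adjusted p from 0.000486 for LOC4337337 to 0.0146 for LOC4337892. LOC4337892 lies 2 places after CRSH2 and read 166 and 111 on the overexpressor-labelled arrays, against 37.0 and 43.6 on the control arrays. It was dim in both groups, and its call was lost without control replicate 1 (1.56), without overexpressor replicate 1 (1.39) and without the filter on dim probe sets. LOC4330540 lies 2 places before LOC4330542, the brightest member. It read 1039 and 1792 on the overexpressor-labelled arrays, against 472 and 459 on the control arrays.

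RTS and CKX4 had neighbours that rose, chosen for mention after their values were seen. Just before RTS, LOC4326939 rose by 0.85 (SE 0.15, limma adjusted p = 0.00961). Just before CKX4, LOC4326513 did not pass (-0.17, limma adjusted p = 0.223). LOC4326512, 2 places before CKX4, rose by 1.05 (SE 0.22, limma adjusted p = 0.016). For these genes only the main settings are given. LOC4326942, 2 places after RTS, read 586 and 519.5 on the overexpressor-labelled arrays, against 226 and 271 on the control arrays (log2 change 1.15, SE 0.17, limma adjusted p = 0.00474). LOC4326517, 2 places after CKX4, read 1824 and 1903 on the overexpressor-labelled arrays, against 1158 and 1084 on the control arrays (log2 change 0.73, SE 0.10, limma adjusted p = 0.00342).

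In 3 places members lay within 5 listed genes of each other. LOC4326386 and LOC4326388, both among the 6 members with ratios of 50 or more, are separated by 1 pseudogene that has no probe set. Flanking genes that were tested, LOC4326384 (log2 change 0.16, limma adjusted p = 0.225), LOC4326390 (0.40, limma adjusted p = 0.0943) and LOC4325948 (0.03, limma adjusted p = 0.882), did not pass. LOC4341467 and LOC4341468 are next to each other. They read 279 and 494, and 291 and 367, on the overexpressor-labelled arrays, against 2501 and 2675, and 3482 and 3598, on the control arrays. The 2 genes after them, PLD2, a phospholipase D gene, and LOC4341470, fell by 0.44 and 0.50 (limma adjusted p = 0.0201 and 0.0185). Both calls were lost without control replicate 1 (-0.40 and -0.50), without control replicate 2 (-0.47 and -0.49) and with scaling to the spikes (-0.12 and -0.18).

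The third run was the longest. LOC4325299, the 1 member gene not listed as protein-coding, read 9.50 and 28.5 on the overexpressor-labelled arrays, at background, against 213 and 223 on the control arrays, at least 5.29-fold lower. LOC4325301, 2 places on, read 100.4 and 192 on the overexpressor-labelled arrays, against 1073.5 and 1146 on the control arrays. The next 3 genes fell as well, though they missed the members' limit. LOC4326918 read 217 and 240.1 on the overexpressor-labelled arrays, against 642 and 688 on the control arrays (log2 change -1.53, SE 0.15, limma adjusted p = 0.00127). LOC4326919 read 908 and 1192 on the overexpressor-labelled arrays, against 2459.9 and 2441 on the control arrays (-1.23, SE 0.14, limma adjusted p = 0.00212). LOC4326920 read 1767 and 1937 on the overexpressor-labelled arrays, against 5753 and 5867 on the control arrays (-1.65, SE 0.09, limma adjusted p = 0.000274). Each had both overexpressor arrays well below both controls. The gene after them, LOC4326921, rose by 0.66 (limma adjusted p = 0.0166), a call lost without control replicate 1 (0.75) or 2 (0.57). LOC4326920 and LOC4326921 were added to the account after their values were seen.

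**Figure D5:**
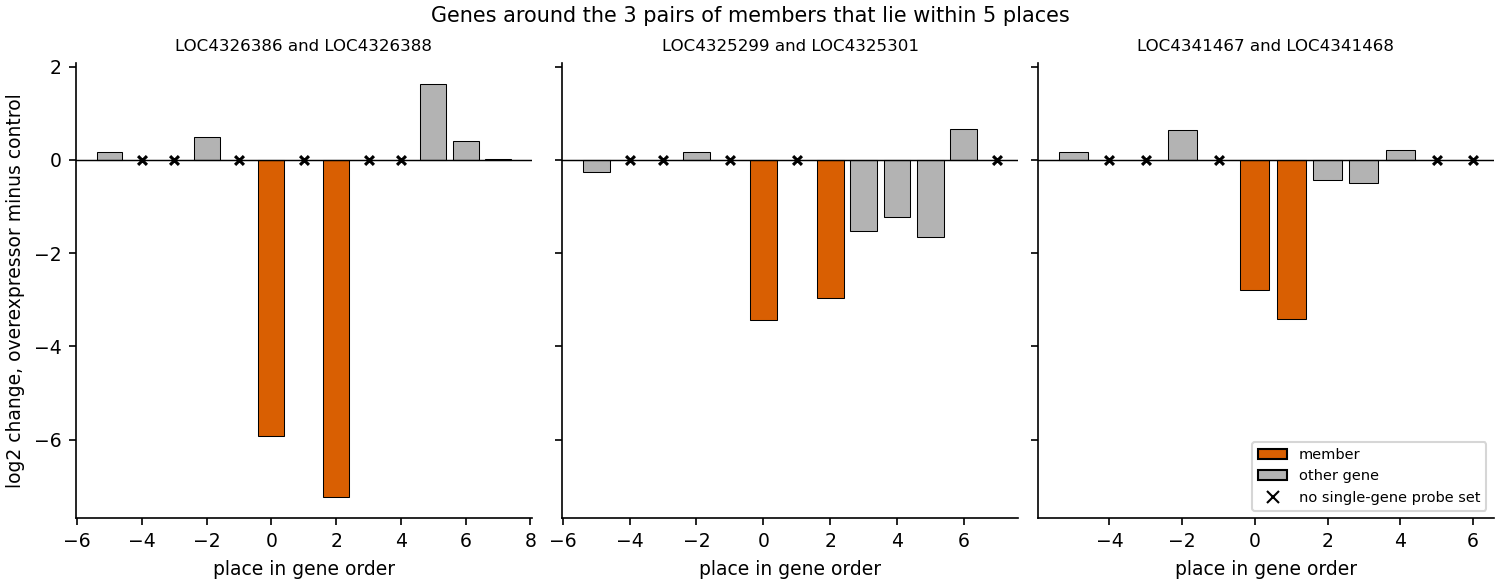
Log2 change (overexpressor minus control) of the genes around the 3 pairs of members within 5 places of each other, by place in gene order from the first member. Orange bars are members, grey bars other genes, including some too dim to be tested, and crosses genes with no single-gene probe set; in the middle panel 3 grey bars from -1.65 to -1.23 follow the 2 members.

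Members lay on all 12 rice chromosomes. Beyond the single-gene probe sets, 32 of 4720 bright probe sets without a gene in the table, or 0.678%, met the same rule of signal. These have no locus here and are not described further.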

How the data were processed

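Leaf RNA from 4 samples, 2 labelled overexpressor and 2 control by their titles, was hybridised to single-colour arrays after biotin labelling of about 10 µg of total RNA, per the labels' protocols. The deposited values are linear intensities for 57381 probe sets, brought by the authors to a common level by software not given in the sources used here. The members and all lists were chosen with earlier results of these data known.

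Genes came from the platform annotation (22436 probe sets with 1 gene, 95 with several, 34850 not listed), and names, synonyms and gene order from the RefSeq table. After adding 3.6, the 10th percentile of all values, log2 signals of the 28629 non-control probe sets at or above the median were compared by two-sided tests in limma 3.58.1 (R 4.3.3; lmFit and eBayes, trend set), with Benjamini-Hochberg adjustment and a threshold of 0.05. That fit called 3760 probe sets lower (13.1%) and 4410 higher (15.4%). Relatives and neighbours were counted by the brightest probe set of each gene. The scripts were tested on simulated data. Tables were handled with Python 3.11.15 and pandas 2.3.3.

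A member at background on both overexpressor-labelled arrays is given a bound, the control mean of log2 signals against the background of those arrays. The text names each member with a symbol, the 20 others with the largest ratios, members within 5 genes of another, the 3 probe sets on either side of the limit, and neighbours or relatives past the threshold and at least 2-fold apart in every pair of arrays. The replicate differences of the groups were uncorrelated (r = -0.02 across probe sets, which are not independent replicates), so replicate numbers were not used to pair arrays. The alternatives changed the pseudocount, scaling, filter, fold, signal limit, background and arrays used. Promoter and protein sequences were not analysed here.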

Additional observations from a re-analysis of the deposited data

How the results depend on the processing

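With 2 arrays a group, the spread rests on few samples, and dim signals limit the folds to bounds. At 4-fold and 10-fold limits the members numbered 118 and 24 probe sets (112 and 22 genes), and 42 (40 genes) with scaling to the hybridisation spikes, which moved the median log2 change of all tested probe sets by more than 0.1, to 0.39 from 0.08. Leaving out 1 array gave 83 to 130 probe sets and 80 to 121 genes and could lose no member, since dropping an array only loosens the rule. The members' median log2 change ran from -2.89 with spike scaling to -3.28 with median centring, with a sign that the choice of members fixes. Members at background on both overexpressor-labelled arrays numbered 21 with background at the highest control probe set, an alternative chosen after seeing the data.

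In the limma fit, spike scaling gave 2115 probe sets lower and 11533 higher, 16 relatives lower and 35 higher, and 9 neighbours lower and 66 higher. Leaving out 1 array gave 1607 to 5233 probe sets lower and 1412 to 6152 higher, 14 to 34 relatives lower and 5 to 26 higher, 9 to 27 neighbours lower and 14 to 43 higher, and 7 to 11 other probe sets of member genes lower. Without the filter 11 relatives were higher. With 5 genes on either side 58 neighbours were lower and 68 higher, of 350 tested. Other probe sets of member genes lower numbered 5 of 6 tested with the filter at the 75th percentile and 4 of 5 without probe sets of a type shared by several transcripts, where fewer were tested. The causes of the other shifts were not tested. With the replicate number as a block, 3695 probe sets were lower and 4236 higher, 24 relatives lower and 17 higher, and 18 neighbours lower and 32 higher; the numbers do not pair the arrays.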
